A study of Mus musculus with 8 samples.

Results

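To compare the nuclei of the upper and outer hypothalamus with those at its base, the 4 arrays of the dorsomedial hypothalamus (DMH) and lateral hypothalamus (LH) were pooled against the 4 arrays of the arcuate nucleus (Arc) and ventromedial hypothalamus (VMH). All 8 arrays of the series entered this comparison. A gene counted as shared by the DMH and LH when a probe for it was well above background on all 4 arrays of these nuclei, passed the limma threshold, had every DMH and LH array above every Arc and VMH array, and had a mean signal in each of the DMH and LH at least 2 times that in each of the Arc and VMH. The reverse rule gave genes shared by the Arc and VMH. A probe was tested when Agilent's software called it well above background on all 4 arrays of at least 1 side, which held for 25798 of 55681 probes. Of these, 70 probes were shared by the DMH and LH and 50 by the Arc and VMH.

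The samples were RNA from the Arc, VMH, DMH, and LH of female C57BL/6 mice (C57BL/6J in the methods) that were 3 months old. The nuclei were cut by laser microdissection from 2 mice, and RNA was amplified as whole-transcriptome cDNA and read on 1-color Agilent arrays, 2 arrays per nucleus. No treatment, diet, or genetic change was applied in any group. The labels do not tie an array to a mouse, and because 8 arrays come from 2 mice, p values over arrays are too small and measure the spread between these arrays only. Labelled cDNA of this kind carries both strands, so a gene and an antisense partner cannot be told apart. In such tissue, fewer cells of a type and less RNA per cell cannot be told apart either.

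The Arc lies at the floor of the third ventricle and holds neurons that make agouti-related peptide or proopiomelanocortin and that receive signals of energy stores from the blood. The VMH, just above it, is built largely of glutamatergic neurons that depend on the nuclear receptor *Nr5a1*. The DMH and LH take part in feeding, arousal, and body temperature, and neurons that make the orexins (gene *Hcrt*) are known to spread from the LH through the perifornical area toward the DMH.

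Markers of the single nuclei were on the labelled arrays. The mean signal of *Agrp* was 50101 in the Arc and 402 to 530 elsewhere, and that of *Nr5a1* was 11928 in the VMH and 355 to 535 elsewhere. *Grp*, *Npvf*, *Prdm13*, and *Skor1* were highest in the DMH, and *Pvalb* was highest in the LH. *Hcrt*, a marker of the LH, and *Crh*, a marker of the paraventricular nucleus, were high in both the DMH and LH, as given below. The 2 LH arrays differed from each other more than other replicates did. Over log2 signals they correlated at r = 0.938, whereas replicates correlated at 0.983 in the Arc, 0.979 in the VMH, and 0.971 in the DMH. LH1 was the array with which Arc1, Arc2, VMH1, VMH2, DMH1, and DMH2 each correlated least (0.903 to 0.934), and it had 364 outlier spots against 126 to 161 on the rest. LH2 correlated with the other arrays at 0.920 to 0.959, and best with DMH2. *Grp*, *Npvf*, *Prdm13*, and *Skor1* were above background on LH1 and not on LH2. Pairs of a DMH and an LH array correlated at 0.930 to 0.959, and pairs of a DMH array and an Arc or VMH array at 0.950 to 0.962. Of the DMH and LH pairs, only DMH2 with LH2 (0.959) lay within the second range, and the rest lay below it. Between 47.1% and 52.7% of spots were above background per array, no spot was saturated, and all arrays were on 1 slide and in 1 scan, where arrays with the same replicate number shared a row.

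The start regions of the genes that carry the comparison are shown next, because the members of each side were chosen by signal alone and their upstream sequence is a property the choice did not use. Each is the 250 bases before the RefSeq gene start in GRCm38.p6, 5′ to 3′ on the strand of the gene, and capitals mark matches to TATAAA or GGGCGG, searched on both strands. *Hcrt* (chr11:100762932-100763181, minus strand), *Trh* (chr6:92244651-92244900, minus strand), and *Ebf3* (chr7:137314446-137314695, minus strand) had the 3 largest ratios shared by the DMH and LH, and *Umodl1* (chr17:30954433-30954682, plus strand) had the largest ratio shared by the Arc and VMH.
Hcrt promoter: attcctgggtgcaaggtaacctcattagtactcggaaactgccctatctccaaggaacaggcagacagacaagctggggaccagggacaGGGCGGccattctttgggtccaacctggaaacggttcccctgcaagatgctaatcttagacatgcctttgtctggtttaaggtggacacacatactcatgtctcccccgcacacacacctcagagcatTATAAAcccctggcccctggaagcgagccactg
Trh promoter: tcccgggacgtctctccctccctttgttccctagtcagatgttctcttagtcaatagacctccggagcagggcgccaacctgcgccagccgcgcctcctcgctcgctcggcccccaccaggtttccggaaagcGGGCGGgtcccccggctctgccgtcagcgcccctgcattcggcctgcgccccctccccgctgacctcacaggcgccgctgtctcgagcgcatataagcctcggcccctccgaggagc
Ebf3 promoter: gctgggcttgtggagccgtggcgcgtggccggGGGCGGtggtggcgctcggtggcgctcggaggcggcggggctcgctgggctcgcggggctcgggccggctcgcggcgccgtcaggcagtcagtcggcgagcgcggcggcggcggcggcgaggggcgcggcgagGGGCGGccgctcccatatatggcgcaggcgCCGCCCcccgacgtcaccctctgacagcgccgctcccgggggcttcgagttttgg
Umodl1 promoter: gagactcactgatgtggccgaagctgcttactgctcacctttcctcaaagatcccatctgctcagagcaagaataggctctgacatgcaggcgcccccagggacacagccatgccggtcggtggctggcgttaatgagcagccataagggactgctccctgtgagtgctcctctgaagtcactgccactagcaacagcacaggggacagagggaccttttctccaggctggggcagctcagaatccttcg
The *Hcrt* sequence held 1 match to TATAAA and 1 to GGGCGG, the *Trh* sequence 1 to GGGCGG, the *Ebf3* sequence 3 to GGGCGG, and the *Umodl1* sequence neither motif. RefSeq promoters were found for 39 of 50 genes shared by the DMH and LH (57 promoters) and for 30 of 36 genes shared by the Arc and VMH (42 promoters). Some genes have several start sites (*Elavl2* has 6), some with windows that overlap, so genes with at least 1 match are counted as well. GGGCGG was in 32 of the 57 promoters (25 of 39 genes) and in 14 of the 42 (12 of 30 genes), against 32.7% of all 32851 promoters of this length and 35.4% of their genes. TATAAA was in 2 and 3 promoters, each of a different gene, against 12.4% of all promoters and 14.3% of genes. The EBF motif, also searched, was in 0 of the 57 and 1 of the 42 promoters, against 0.779% of all, and in none of the 4 sequences shown. The promoters with TATAAA belonged to *Hcrt* and *Etl4* on one side and to *H2-Q10*, *H2-Q2*, and *Thrb* on the other. A match is a description of letters and not of binding.

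Signal intensities below are the deposited processed signals after each array was scaled to a common 75th percentile, and log2 differences are the mean log2 signal of the DMH and LH arrays minus that of the Arc and VMH arrays. With limma at an adjusted p of 0.05, 83 probes were higher in the DMH and LH (0.322% of those tested) and 57 were higher in the Arc and VMH (0.221%). The shared rule held for 70 of the 83 (0.271% of those tested), which stood for 50 genes and 10 probes without a gene symbol. It held for 50 of the 57 (0.194%), which stood for 36 genes and 9 probes without a symbol. At an unadjusted p of 0.05, limma counted 1502 probes (5.82%) and 1321 probes (5.12%). For comparison, arrays of the sides did not overlap for 885 probes that were higher in the DMH and LH (3.43%) and for 871 that were higher in the Arc and VMH (3.38%). When the 2 arrays of a nucleus were averaged first, so that 2 nuclei stood against 2, limma called 1 probe higher (*Ebf3*) and 0 lower, with 529 and 675 at an unadjusted p of 0.05. Without scaling of the arrays the counts were 90 and 25 (78.3% of calls higher in the DMH and LH, against 59.3% with scaling), and the median log2 difference of all probes tested moved from -0.01 to 0.17.

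**Figure D1:**
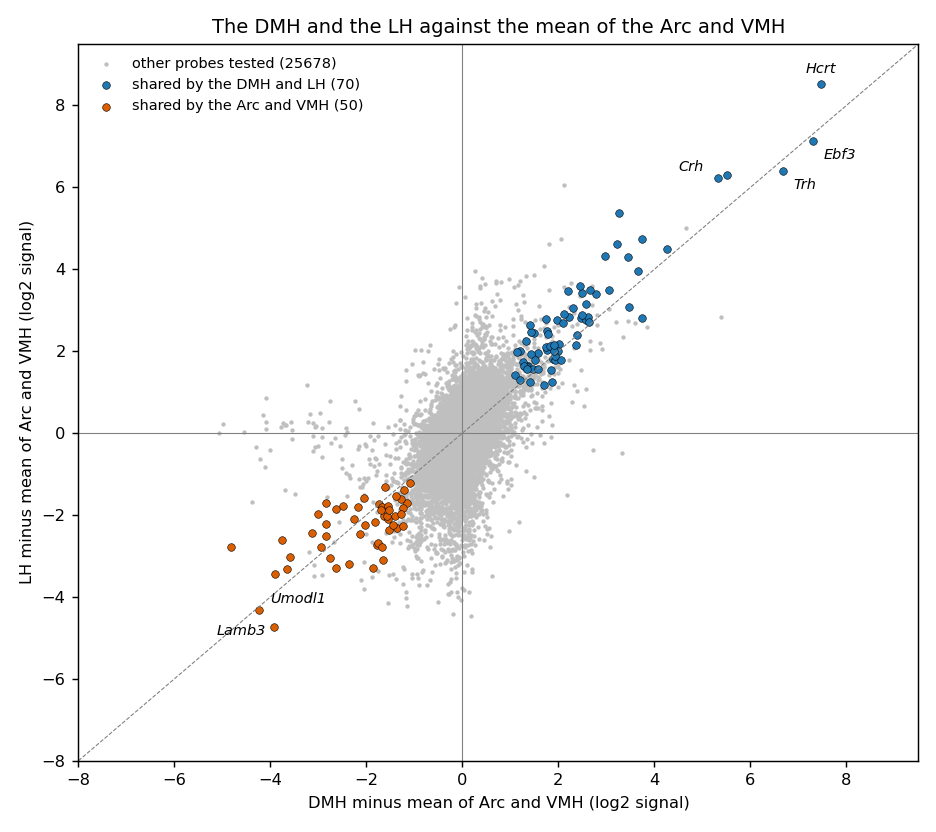
Each point is 1 of 25798 probes, placed by its mean log2 signal in the DMH (horizontal axis) and in the LH (vertical axis) minus the mean of the Arc and VMH, with equality on the dashed line. Both axes subtract the same Arc and VMH arrays, which ties them together. The 70 probes shared by the DMH and LH (blue) lie at the upper right, with *Hcrt*, *Ebf3*, *Trh*, and *Crh* far from the rest, and the 50 shared by the Arc and VMH (orange) lie at the lower left.

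The members differed in how firmly the low side was measured. Of the 70 probes shared by the DMH and LH, 25 were not above background on any Arc or VMH array and 34 were above it on all 4. Of the 50 shared by the Arc and VMH, the numbers for the DMH and LH arrays were 19 and 22. Where no array of the low side measured a probe, its fold is given as at least a bound, namely the mean of the bright side over a dim side set, per array, to the higher of the probe's own signal and the lowest scaled signal above background, which was 79.3 to 132. These bounds ran from 1.37 to 59.8 for the DMH and LH and from 1.67 to 9.73 for the Arc and VMH. The smallest ratio between a nucleus of the high side and one of the low side was at least 10 for 8 of the 70 probes and for 1 of the 50. With a single array left out, 38 (without LH2) to 52 (without VMH2) of the 70 and 22 (without VMH1) to 37 (without DMH1) of the 50 still met the rule. Without Arc1, 39 and 27 did, without VMH1, 40 and 22, and without LH2, 38 and 27, and 33 and 20 met it whichever single array was left out. Without both arrays of a nucleus, 50 and 33 met it (Arc), 53 and 32 (VMH), 57 and 42 (DMH), and 20 and 18 (LH). Members next to the 2-fold limit were *Nxph4* (second probe, smallest ratio 2.03) and *H2-Q10* (2.04) on the inside and *Rasgrp2* (1.94) and *Plin5* (1.99) on the outside.

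Precursors of neuropeptides were among the largest differences on the side of the DMH and LH. The 6 genes *Hcrt*, *Trh*, *Crh*, *Npb*, *Nts*, and *Penk* were higher in the DMH and LH, from 2.5-fold for *Penk* to 254-fold for *Hcrt*. These roles were assigned by hand after the values were seen.

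*Hcrt*, the precursor of the orexins, had signals of 188 and 241 on the Arc arrays, 684 and 275 on the VMH arrays, 55939.9 and 51283 on the DMH arrays, and 105971 and 116750 on the LH arrays. The sides did not overlap, which the shared rule required, and both LH arrays were above both DMH arrays. The mean was 82486 ± 33684 (SD, n = 4) against 347 ± 228 (SD, n = 4), a log2 difference of 7.99 (SE 0.43, limma adjusted p = 5.39e-05). The log2 difference between the DMH and LH was -1.05 with an adjusted p of 0.268 in limma. *Trh*, the precursor of thyrotropin-releasing hormone, gave 116, 119, 45.5, and 43.8 on the Arc and VMH arrays and 5586, 9818, 6519, and 5689.7 on the DMH and LH arrays. None of the Arc and VMH arrays measured it above background, and the DMH and LH were at least 59.8-fold higher (log2 difference 6.54, SE 0.38, limma adjusted p = 9.09e-05). Unlike *Hcrt*, its highest array was from the DMH.

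*Crh*, which encodes corticotropin-releasing hormone, had signals of 28.7 and 26.8 on the Arc arrays, 265 and 49.4 on the VMH arrays, 2026 and 2543 on the DMH arrays, and 4931 and 3623 on the LH arrays. Only VMH1 measured it above background on the low side. The log2 difference was 5.78 (SE 0.67, limma adjusted p = 0.00636), or 4.56 with dim signals raised to the lowest signal above background, and the call ended without the LH arrays (adjusted p = 0.108). *Npb*, the precursor of neuropeptide B, was read by 3 probes, of which the brightest by ratio gave 66.9, 29.7, 39.7, and 46.1 on the Arc and VMH arrays and 475, 641, 715, and 651 on the DMH and LH arrays. All 3 probes were called, with log2 differences of 3.81 (SE 0.26, limma adjusted p = 0.000279), 2.68, and 1.90. The first stood for at least 5.66-fold, because no Arc or VMH array measured it.

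*Nts*, the precursor of neurotensin, gave 30.1, 27.4, 69.2, and 22.9 on the Arc and VMH arrays, 246 and 427 on the DMH arrays, and 1291 and 1542 on the LH arrays. The LH pair lay well above the DMH pair, although the test between them missed the threshold (log2 difference -2.12, limma adjusted p = 0.131). The pooled difference was at least 6.23-fold (log2 difference 4.32, SE 0.60, limma adjusted p = 0.0155), and it was not called without Arc1 (0.0587), Arc2 (0.053), or VMH2 (0.0518), nor with normexp background correction in place of Agilent's (0.0698). *Penk*, the precursor of the enkephalins, was bright in all nuclei, at 8746 to 12772 on the Arc and VMH arrays and 22614 to 29651 on the DMH and LH arrays. Its 2.5-fold difference (log2 difference 1.32, SE 0.18, limma adjusted p = 0.0132) was the smallest of the group and was lost without Arc2 (0.053), VMH1 (0.054), or DMH2 (0.0546).

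**Figure D2:**
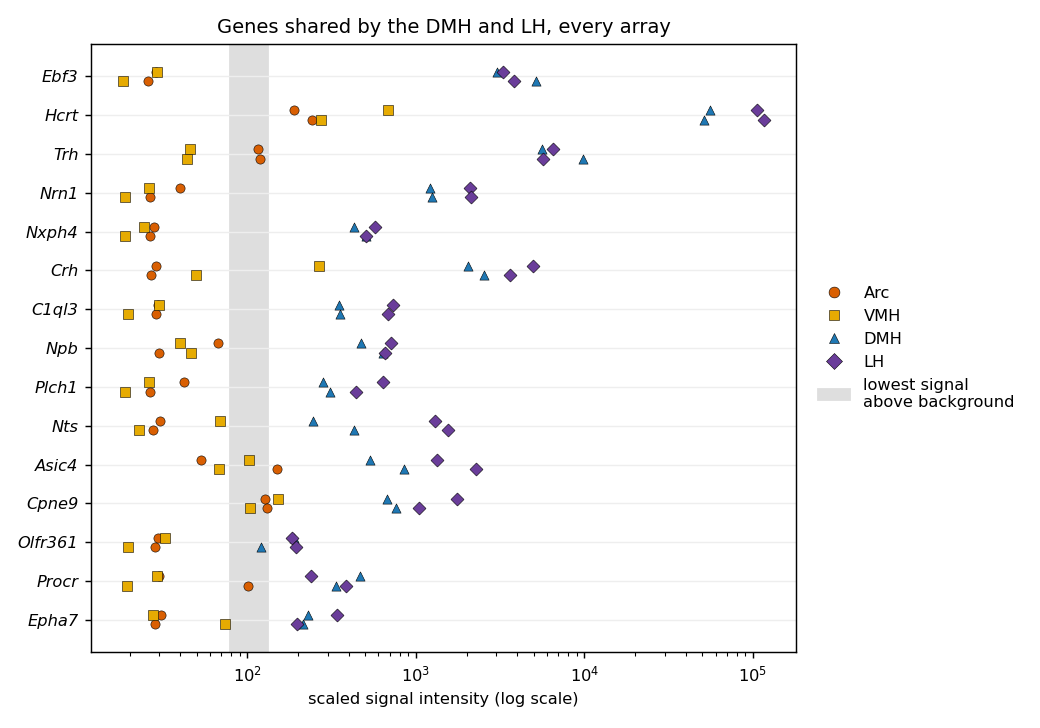
Scaled signal intensity (horizontal log axis) of the 15 genes with the largest smallest ratio between the sides, 1 row per gene and 1 point per array, with the lowest signals above background in grey (79.3 to 132). *Hcrt* is far right of the other genes on the DMH and LH arrays, and *Nts* and *Asic4* show the LH arrays to the right of the DMH arrays. In most rows the Arc and VMH points lie in or left of the grey band.

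Proteins that are secreted or organize synapses formed the second group, with 8 genes on 10 probes. *Nrn1*, encoding neuritin, a membrane-anchored protein induced by neuronal activity, gave 40, 26.4, 26.1, and 18.7 on the Arc and VMH arrays, 1208 and 1245 in the DMH, and 2099 and 2135 in the LH. The DMH and LH exceeded the other side at least 14.9-fold (log2 difference 5.91, SE 0.29, limma adjusted p = 3.13e-05). *Nxph4*, of the neurexophilins that bind neurexins, gave 18.8 to 27.8 on the Arc and VMH arrays and 428, 504, 572, and 507 on the DMH and LH arrays, at least 4.61-fold (log2 difference 4.38, SE 0.18, limma adjusted p = 1.1e-05). Its second probe was above background on all 8 arrays, at 677 to 1119 against 1713 to 2822, and gave a log2 difference of 1.24 with a limma adjusted p of 0.0478 that was lost in each of the 8 fits without 1 array (up to 0.137). The probes thus disagreed in size and not in direction.

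*C1ql3*, a secreted C1q-like protein of synapses, gave 19.6 to 30.1 on the Arc and VMH arrays, 349 and 356 in the DMH, and 731 and 679 in the LH. It was at least 4.6-fold higher (log2 difference 4.23, SE 0.29, limma adjusted p = 0.000279), and the LH arrays were again above the DMH arrays. Among genes chosen after their values were seen, *Crhbp*, whose product binds corticotropin-releasing hormone, gave 28.9, 25.9, 113, and 79.6 against 355, 342, 579.6, and 503. It was at least 4-fold higher (log2 difference 3.09, SE 0.47, limma adjusted p = 0.0247), but leaving out any of 6 of the 8 arrays ended the call, all but VMH1 and VMH2 (up to 0.0983, without LH2). *Cbln2*, a cerebellin that links neurexins to postsynaptic receptors, was measured on all arrays, at 792 to 3411 against 8029.6 to 11251, and its log2 difference of 2.67 (SE 0.39, limma adjusted p = 0.0207) was also lost in 6 of 8 such fits, all but those without Arc1 or Arc2 (up to 0.0777, without VMH1).

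Transcription factors and RNA-binding proteins numbered 6 genes on 7 probes. *Ebf3*, a transcription factor of the EBF family that acts in neuronal differentiation, gave 28.9, 25.6, 29.1, and 18.3 on the Arc and VMH arrays, none above background, and 3043, 5175, 3287, and 3818 on the DMH and LH arrays. The mean was 3831 ± 953 (SD, n = 4) against 25.5 ± 5.03 (SD, n = 4). The DMH and LH did not separate from each other (log2 difference 0.16, limma adjusted p = 0.825). The pooled difference was at least 34.6-fold (log2 difference 7.23, SE 0.23, limma adjusted p = 1.63e-06), and of the members it alone kept its call when the arrays of a nucleus were averaged first.

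*Ebf1*, of the same family and chosen after its values were seen, gave 181 to 265 on the Arc and VMH arrays and 746, 796, 1248, and 1131 on the DMH and LH arrays. It was above background everywhere and 4.27-fold higher (log2 difference 2.10, SE 0.22, limma adjusted p = 0.00457). *Lhx9*, a LIM-homeodomain factor, gave 76.4 to 98.9 against 292, 479, 374, and 861, at least 4.17-fold (log2 difference 2.39, SE 0.31, limma adjusted p = 0.0108), and 2 other *Lhx9* probes were not tested, since they were above background on 0 and 1 of the 8 arrays. The latter gave 195 and 132 on the LH arrays but 23.2 and 22.1 on the DMH arrays, within its Arc and VMH range of 19.7 to 31.4. *Pou3f4*, a POU-domain factor, and *Elavl2*, a neuronal RNA-binding protein, were also chosen after their values were seen and had log2 differences of 2.26 (limma adjusted p = 0.00367) and 1.96 (limma adjusted p = 0.00232, second probe 1.52). Of the 7 probes in this group, 6 met the rule without any single array, the exception being *Zfp536*, a zinc finger gene with a log2 difference of 1.56 (SE 0.28, limma adjusted p = 0.0478) that was lost in 7 of the 8 fits, all but that without DMH2 (up to 0.14).

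Receptors and channels numbered 9 genes on 12 probes. *Asic4*, of the acid-sensing ion channel family, gave 53.2, 150.4, 103, and 67.5 on the Arc and VMH arrays and 532, 855, 1339, and 2262 on the DMH and LH arrays, at least 9.58-fold (log2 difference 3.65, SE 0.46, limma adjusted p = 0.0104). The call ended without the LH arrays (0.0728). A second *Asic4* probe, above background on all 8 arrays, gave 170, 379, 257, and 225 on the Arc and VMH arrays and 794, 1205, 205, and 3049 on the DMH and LH arrays. Its LH1 signal lay within the Arc and VMH range, and it was not called (log2 difference 1.83, SE 0.68, limma adjusted p = 0.369). *Epha7*, an ephrin receptor, gave 27.5 to 73.4 against 197 to 339, at least 2.21-fold (log2 difference 2.72, SE 0.33, limma adjusted p = 0.00915). Its second probe, at 73 to 152 against 226 to 400.3, was above background on 1 of the 4 Arc and VMH arrays and passed with a limma adjusted p of 0.0478, which was lost in 7 of 8 fits without 1 array, all but that without VMH2 (up to 0.147). One more *Epha7* probe, above background on all 8 arrays, gave 224 to 614 against 482 to 684. The sides overlapped for it, and it was not called (log2 difference 0.76, SE 0.30, limma adjusted p = 0.393).

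*Procr*, the endothelial protein C receptor, gave 30, 100.5, 29, and 19.2 against 469, 337, 240.1, and 386, at least 3.21-fold (log2 difference 3.27, SE 0.46, limma adjusted p = 0.0175), but not without Arc1 (0.0616), VMH1 (0.0731), DMH2 (0.0599), or LH2 (0.0702). Of 11 probes for endothelial markers, 9 were higher in the DMH and LH, limma called 0, and 5 passed an unadjusted p of 0.05 (median log2 difference 0.50). The summed signal of these markers was 12024 to 16981 on the DMH arrays and 19254 to 23788 on the LH arrays, against 10271 to 12977 on the Arc and VMH arrays, and all 10 listed genes were above background on at least 1 array. The part of these cells in the *Procr* result was not tested. *Olfr361*, named on the array as an odorant receptor, gave 19.6 to 32.6 against 120.1 to 194, at least 1.55-fold (log2 difference 2.64, SE 0.23, limma adjusted p = 0.00157). Its DMH and LH signals lay near the lowest signals above background, and raising dim signals to that limit ended the calls of *Olfr361* (limma adjusted p = 0.299), *Epha7* (0.0608), and *Nts* (0.0672).

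*Trhr*, the receptor of the *Trh* product, gave 407, 681, 1616, and 1073 on the Arc and VMH arrays and 4612, 4137, 4003, and 4736 on the DMH and LH arrays. Ligand and receptor were therefore both higher on the same side, the receptor by 5.24-fold (log2 difference 2.39, SE 0.37, limma adjusted p = 0.0272). For *Trhr* the call ended in 6 of 8 fits without 1 array, all but those without Arc1 or VMH1 (up to 0.103, without LH2). *Htr2c*, a serotonin receptor chosen after its values were seen, was called by 3 probes, with log2 differences of 3.08 (SE 0.39, limma adjusted p = 0.0103), 2.51, and 1.86. The first gave 319, 233, 805, and 392 against 2149, 2862, 4531, and 4285. For the third, the call ended in 7 of the 8 fits without 1 array, all but that without VMH2 (up to 0.134).

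Of the other named genes in the 15 largest, *Plch1*, a phospholipase C, gave 18.7 to 41.9 against 282, 311, 642, and 441, at least 3.66-fold (log2 difference 3.88, SE 0.32, limma adjusted p = 0.00108). *Cpne9*, a copine, a family that binds phospholipids with calcium, gave 103 to 152 against 675, 761, 1758, and 1046, with 1 of the 4 Arc and VMH arrays above background (log2 difference 2.96, SE 0.30, limma adjusted p = 0.00361). Both were highest on the LH arrays. The group of intracellular signalling proteins held 8 genes on 9 probes, with smallest ratios of 2.09 to 8.69, and 6 of the 9 met the rule without any single array. The group of adhesion, membrane, and vesicle proteins held 6 genes, with smallest ratios of 2.17 to 5.59, and 1 of its 6 probes did.

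Within the 70 probes, the DMH was below the LH for 56 and above it for 14, against 51.6% below over all probes tested. None of the 70 differed between the DMH and LH in limma at an adjusted p of 0.05, against 0.64% of all probes. The pooled fit that chose them counts a difference between the DMH and LH as spread, so the choice disfavoured such probes. This count is therefore no result about the members, and a p that misses the threshold does not show equal levels. All 4 comparisons of a high with a low nucleus passed the threshold for 40 of the 70. These comparisons share arrays with each other and with the rule that chose the probes. Over all probes they called 1.21% (DMH against Arc), 2% (DMH against VMH), 10.6% (LH against Arc), and 5.79% (LH against VMH). Summed signals of 13 oligodendrocyte marker genes were 137765 to 151447 on the LH arrays, 34433 to 35323 on the DMH arrays, and 13711 to 47707 on the Arc and VMH arrays. The part of these cells in the differences between the DMH and LH was not tested. With 1 term for the side, limma called none of the 17 oligodendrocyte probes between the sides, with 13 at an unadjusted p of 0.05. With a mean per nucleus in the fit it called 13 of the 17, and without the DMH arrays 5 of 19.

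On the side of the Arc and VMH, the members were fewer, and no neuropeptide precursor was among them. Large differences belonged to *Umodl1*, *Lamb3*, and *Cfap45*, none of which was above background on any DMH or LH array.

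Among transcription factors and nuclear receptors, *Six3*, a homeobox gene of the forebrain, gave 1611, 2655, 1028, and 1299 against 139, 265, 346, and 443 (log2 difference -2.50, SE 0.39, limma adjusted p = 0.0287). *Six3os1*, which starts upstream of *Six3* on the opposite strand and was chosen after its values were seen, gave -2.24 (limma adjusted p = 0.0243). The labelled cDNA carries both strands, so a probe does not show from which strand its signal came. Leaving out any of 6 of the 8 arrays ended the call of *Six3*, all but DMH1 and LH2 (up to 0.0938, without Arc1). *Rreb1*, a zinc finger factor of Ras signalling, gave 191 to 469 against 21.1 to 76.9, at least 3.38-fold (log2 difference -2.90, SE 0.42, limma adjusted p = 0.0191), lost without Arc2, VMH1, VMH2, or DMH2 (up to 0.0746). Its second probe, above background on all 8 arrays, gave 1537 to 3942 against 449.8 to 673 (log2 difference -1.99, limma adjusted p = 0.0287), lost in 6 of 8 such fits, all but those without Arc1 or Arc2 (up to 0.108).

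*Thrb*, a thyroid hormone receptor, gave 858, 845, 1271, and 1127 against 270.3, 436, 291, and 293 (log2 difference -1.67, SE 0.22, limma adjusted p = 0.0114). A second probe gave -1.53 (limma adjusted p = 0.0379) and was lost in 7 of 8 fits without 1 array, all but that without LH1 (up to 0.121). *Crym*, a cytosolic protein that binds thyroid hormone, gave 1444, 1408, 1019.6, and 883 against 150.3, 176, 216, and 293, a 5.75-fold difference (log2 difference -2.52, SE 0.26, limma adjusted p = 0.00369). For both genes the shared rule itself required arrays of the sides that do not overlap. *Crym* is also on the list of tanycyte and ependymal markers, of which 9 genes were tested. Their median log2 difference was -0.35 and only *Crym* and *Scn7a* (-2.26, limma adjusted p = 0.0478, lost in 6 of 8 fits without 1 array, all but those without VMH2 or DMH2, up to 0.164) were called. Without the VMH arrays the median was -2.04 and 4 of 11 probes were called, without the Arc arrays it was 0.02 with 1 of 9 called, and with a mean per nucleus in the fit 5 of the 9 were called. The summed signal of the list was 11091 to 12374 in the Arc and 4666 to 5235 in the VMH, against 4539 to 6474 in the DMH and LH, and *Foxj1* and *Tmem212* were not above background on any array. The part of these cells in the result was not tested.

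**Figure D3:**
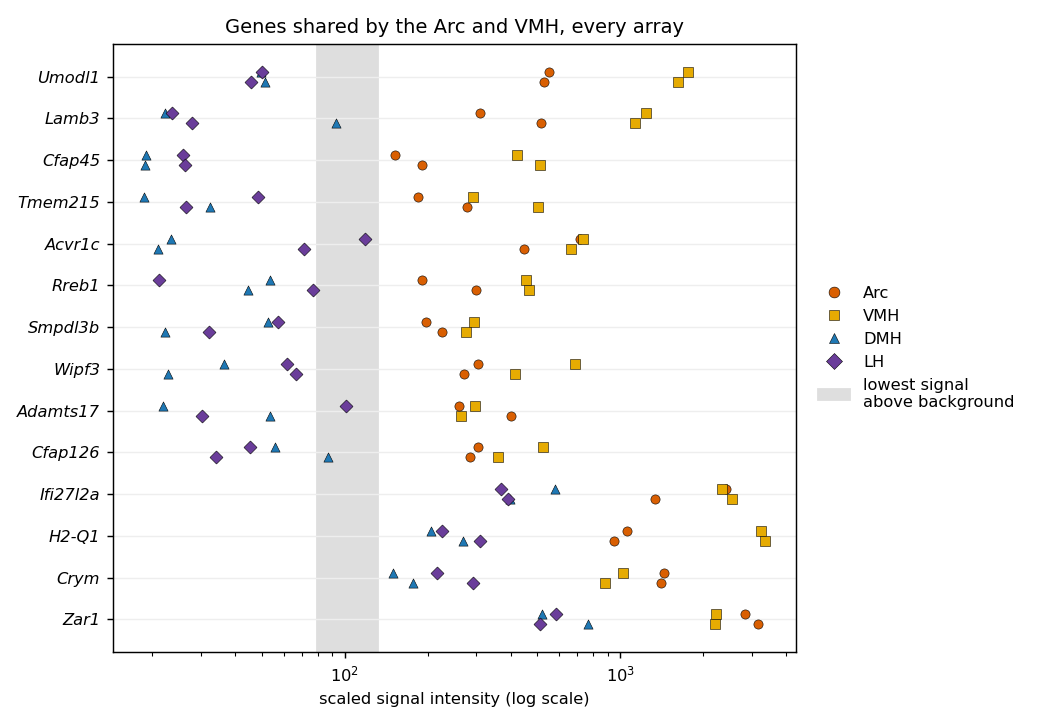
Scaled signal intensity (horizontal log axis) of named genes shared by the Arc and VMH with the largest smallest ratios, 1 row per gene and 1 point per array, with the lowest signals above background in grey (79.3 to 132). *Umodl1*, *Lamb3*, *Cfap45*, and *H2-Q1* show the VMH points to the right of the Arc points. For most of the genes the DMH and LH points lie in or left of the grey band, and *Ifi27l2a*, *H2-Q1*, *Crym*, and *Zar1* are to its right on every array.

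*Mc3r*, a receptor for melanocortins, the peptides cut from proopiomelanocortin, gave 2906, 2410.1, 2352, and 2568 on the Arc and VMH arrays and 590.1, 647, 968, and 739 on the DMH and LH arrays. The difference between the Arc and VMH did not pass (log2 difference 0.11, limma adjusted p = 0.862), and both were above the other side by 3.53-fold (log2 difference -1.82, SE 0.19, limma adjusted p = 0.00457). *Acvr1c*, a type I receptor for ligands of the activin and nodal family, gave 718, 447, 733, and 665 against 23.4, 21, 118, and 71.3, at least 5.79-fold (log2 difference -3.80, SE 0.52, limma adjusted p = 0.0155). The call ended without Arc1 (0.0586) or VMH1 (0.0629), and a second *Acvr1c* probe, at 2409 to 4423 against 107 to 1260, had sides that did not overlap but was not called (log2 difference -3.03, SE 0.69, limma adjusted p = 0.138).

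Matrix, adhesion, and guidance proteins numbered 8 genes on 9 probes. *Umodl1*, a uromodulin-like protein, gave 554 and 531 in the Arc, 1759 and 1619 in the VMH, and 45.6 to 51.6 on the DMH and LH arrays. The Arc and VMH themselves differed (log2 difference -1.64, limma adjusted p = 0.00382). Against the DMH and LH the pooled arrays were at least 9.73-fold higher (log2 difference -4.28, SE 0.40, limma adjusted p = 0.00274). *Lamb3*, a laminin chain, gave 309.9, 516, 1241, and 1129.7 against 22.2, 93.3, 23.6, and 28, at least 7-fold (log2 difference -4.33, SE 0.56, limma adjusted p = 0.0108), and was not called without the LH arrays (0.185). *Adamts17*, a secreted metalloprotease, gave 259.5 to 402 against signals that were not above background on any DMH or LH array, at least 2.89-fold (log2 difference -2.79, SE 0.43, limma adjusted p = 0.0252), and was lost in 6 of 8 fits without 1 array, all but those without DMH1 or LH1 (up to 0.0983, without LH2). A second *Adamts17* probe, above background on 3 of the 4 DMH and LH arrays, gave 378 to 840 against 115 to 217 (log2 difference -1.70, SE 0.30, limma adjusted p = 0.0496), and its call was lost in 7 of 8 such fits, all but that without DMH1 (up to 0.164, without LH2).

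*Efnb1*, a membrane-bound ephrin, and *Fgf10*, a growth factor, were chosen after their values were seen. *Efnb1* gave 2989 to 3219 on the Arc and VMH arrays and 645 to 1129 on the DMH and LH arrays, a 3.48-fold difference (log2 difference -1.80, SE 0.19, limma adjusted p = 0.00457). *Fgf10* was dimmer, at 149 to 177 against 22.7 to 50, at least 1.67-fold (log2 difference -2.28, SE 0.30, limma adjusted p = 0.0113). That the sides did not overlap for these genes was required by the shared rule.

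Of the class I histocompatibility genes, *H2-Q1* gave 1057 and 947 in the Arc, 3239.9 and 3361 in the VMH, and 205 to 309.7 on the DMH and LH arrays. The VMH was above the Arc (log2 difference Arc minus VMH -1.72, limma adjusted p = 0.00818). Against the DMH and LH the difference was 7.29-fold (log2 difference -2.87, SE 0.43, limma adjusted p = 0.0245), lost in 6 of 8 fits without 1 array, all but those without Arc1 or Arc2 (up to 0.0732). Probes of *H2-Q2* and *H2-Q10* moved in the same direction, and because genes of this family are nearly identical in sequence, which of them was measured is uncertain. *Ifi27l2a*, an interferon-induced gene, gave 2419, 1342, 2341, and 2538 against 579, 399, 369.7, and 391, a 4.9-fold difference (log2 difference -2.29, SE 0.25, limma adjusted p = 0.00457). None of the 11 microglial marker probes was called between the sides by limma, with 0 at an unadjusted p of 0.05.

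The 2 genes of cilia and flagella were also shared by the Arc and VMH. *Cfap45* gave 152 and 191 in the Arc, 422 and 512 in the VMH, and 18.8 to 26.3 on the DMH and LH arrays, at least 2.87-fold (log2 difference -3.66, SE 0.38, limma adjusted p = 0.00439). *Cfap126* was called by 2 probes, with log2 differences of -2.77 (SE 0.31, limma adjusted p = 0.00541) and -2.18 (SE 0.22, limma adjusted p = 0.00338). The second was above background on all arrays, at 640.2 to 899 against 139 to 244.

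The remaining named genes were *Tmem215*, *Smpdl3b*, *Wipf3*, and *Zar1*. *Zar1*, known for its role in the oocyte, was measured on every array, at 2848, 3151, 2227, and 2215 against 519, 767, 583, and 512 (log2 difference -2.14, SE 0.20, limma adjusted p = 0.00278). The transmembrane protein *Tmem215* gave 184 to 505 against 18.7 to 48.6 (log2 difference -3.31, SE 0.36, limma adjusted p = 0.00457). *Wipf3*, a protein of the actin cytoskeleton, gave 271 to 683 against 22.8 to 66.5 (log2 difference -3.19, SE 0.40, limma adjusted p = 0.00956). The lipid phosphodiesterase *Smpdl3b* gave 197 to 296 against 22.3 to 57.5 (log2 difference -2.67, SE 0.31, limma adjusted p = 0.00636). No DMH or LH array measured the last 3, whose bounds were 3-fold, 3.98-fold, and 2.49-fold. Raising dim signals ended the calls of *Tmem215* (0.0527) and *Cfap45* (0.147). Normexp background correction ended those of *Cfap45* (0.057), *Rreb1* (0.0517), *Smpdl3b* (0.0766), *Wipf3* (0.0574), and *Adamts17* (0.066), and that of *Olfr361* (0.0573) on the other side.

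Within the 50 probes, the Arc was above the VMH for 19 and below it for 31, against 49.9% below over all probes tested. Of the 50, 1 was called higher in the Arc and 4 higher in the VMH at a limma adjusted p of 0.05, against 6.16% of all probes tested called in either direction. The pooled fit that chose the 50 likewise counts a difference between the Arc and VMH as spread. All 4 comparisons of a high with a low nucleus passed for 26 of the 50, and they used the same arrays that chose the probes.

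Of the 30 genes with the largest ratios, 15 per side, 10 lost their call when both LH arrays were left out. Beside *Crh*, *Asic4*, and *Lamb3*, for which the values are given above, these were *Nts* (limma adjusted p = 0.0657), *Procr* (0.141), and *Epha7* (0.0934) on the side of the DMH and LH, and *Rreb1* (0.0603), *Cfap126* (0.0503), *Ifi27l2a* (0.0794), and *H2-Q1* (0.227) on the other. Without the DMH arrays, *Procr* (0.0613) and *H2-Q1* (0.0704) lost theirs. Without the Arc arrays, *Nts* (0.0656) and *Adamts17* (0.0779) did, and without the VMH arrays, *Procr* (0.0522), *Acvr1c* (0.0642), *Rreb1* (0.0712), and *Adamts17* (0.0698) did.

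The members were set against lists of hypothalamic genes, over which 0.543% of all probes tested was the background of calls and -0.01 the median log2 difference. For neuropeptides, 29 of 42 listed genes were tested on 33 probes, and 9 probes of 7 genes were called, all of them higher in the DMH and LH (27.3%, median 0.90). These were the 6 precursors above and *Cbln2*. A listed probe could enter through the side where it was high, so these shares and medians are no support for a direction of a list. With neuropeptide probes above background on all 8 arrays, limma called 4 of 20 and the median was 0.08, without a filter on dim probes the median was -0.05 (9 of 47 called), and without the VMH arrays it was -0.03 (18 of 36). For transcription factors, 36 of 55 genes were tested on 40 probes, and 4 probes were called (10%, median 1.06), among them *Ebf3* and *Lhx9* higher and *Six3* lower in the DMH and LH. With probes above background on all 8 arrays, limma called 0 of 19 and the median was 0.47, and without the VMH arrays the median was 0.29 (16 of 44 called). For receptors of hormones and neuropeptides, 36 of 47 genes were tested on 53 probes, with *Trhr* higher and *Mc3r* and *Thrb* (2 probes) lower (7.55%, median -0.36). With probes above background on all 8 arrays, limma called 3 of 39 (median -0.33), and without the VMH arrays 14 of 57 (median -0.80). Of 24 probes for calcium-binding and fast-spiking genes, limma called 0, with 3 at an unadjusted p of 0.05 (median 0.63). With a mean per nucleus in the fit it called 9 of the 24, and without the DMH arrays 4 of 27 (median 1.49).

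**Figure D4:**
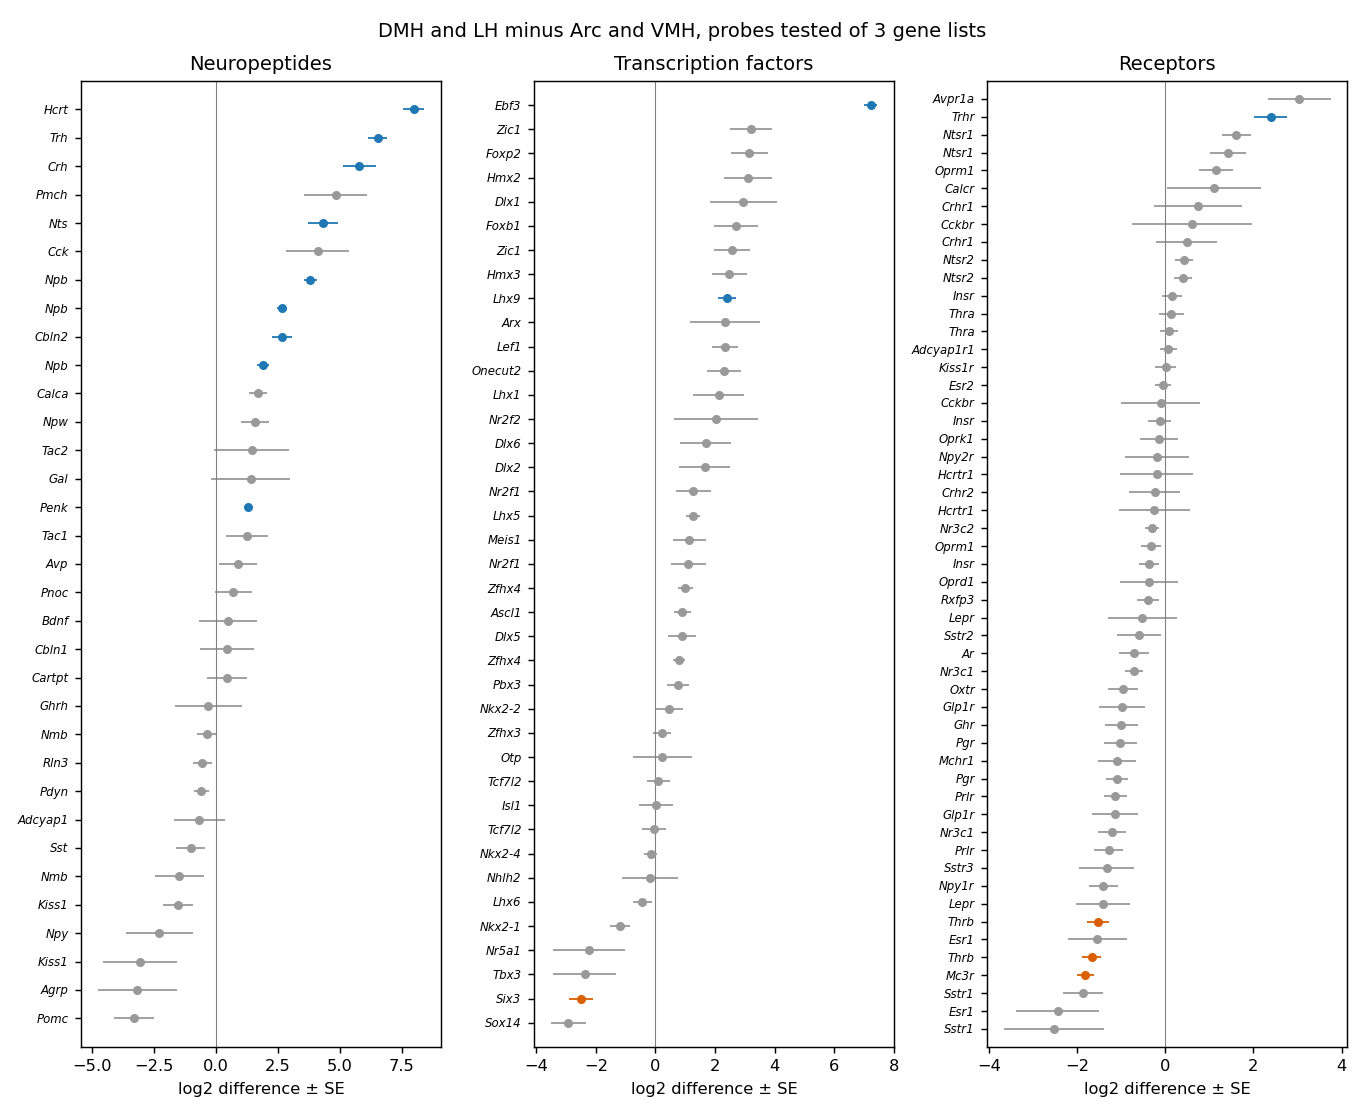
Log2 difference of the DMH and LH minus the Arc and VMH (horizontal axis, bars are SE of the limma fit) for probes tested of neuropeptides, transcription factors, and receptors, 1 row per probe. Blue marks probes higher and orange probes lower in the DMH and LH at a limma adjusted p under 0.05, and grey marks the rest. Several grey points, such as *Pmch* and *Pomc*, lie farther from 0 than called ones but have wide bars.

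Some large differences of listed genes did not pass the limma threshold. *Pmch*, the precursor of melanin-concentrating hormone, had mean signals of 84.3 (Arc), 3539 (VMH), 13942 (DMH), and 17328 (LH) (log2 difference 4.83, limma adjusted p = 0.19). *Pomc* had mean signals of 41756 (Arc), 3957 (VMH), 1500.2 (DMH), and 1151 (LH) (log2 difference -3.30, limma adjusted p = 0.162). For both genes the arrays of the sides did not overlap, and the Arc and VMH stood far apart. *Foxp2* (3.15, limma adjusted p = 0.0822), *Lef1* (2.34, 0.0542), and *Sox14* (-2.93, 0.0866) were also short of the threshold.

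Markers of the paraventricular and supraoptic nuclei were examined because *Crh* is on that list. Of its 4 tested probes, *Crh* alone was called, and *Sim1* was not above background on any array. The summed signal of the list was 3284 to 3950.1 on the DMH arrays, 6297 and 15270 on LH1 and LH2, and 764 to 9197 on the Arc and VMH arrays. Its part in the *Crh* result was not tested.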

How the data were processed

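Spot intensities were obtained by the authors with Agilent Feature Extraction. The deposited processed signal is linear, background-subtracted, and not scaled between arrays. The file headers give version 10.7.3.1, and the submitters' processing notes give 11.5.1.1. Red-channel columns were used, the channel of Cy5, which the methods name, whereas the labels name Cy3. A deposited table of all arrays, with 1 rounded value per probe, was used as an alternative only.

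Spots marked as outliers were left out, spots of a probe were averaged, each array was scaled to the geometric mean of the 75th percentiles, and log2 was taken. A linear model with 1 term for the side was fitted with limma 3.58.1 in R 4.3.3 to the 25798 probes well above background on all 4 arrays of a side (6 residual and 3.49 prior degrees of freedom), and p values were adjusted over them by the method of Benjamini and Hochberg with a threshold of 0.05. The methods state no test for the arrays, and the t-test they name for a pair of groups was run as an alternative. Comparisons of single nuclei came from a fit with 1 mean per nucleus. Other alternatives changed the scaling, background correction, filter, outlier spots, dim signals, model, fold minimum, and the arrays or nuclei used, and "raised dim signals" means raised to the lowest signal above background of their array.

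Genes named are the 15 per side with the largest smallest ratio, list members, and those that the text marks as picked after their values were known. Values of some listed genes are not reported here. The comparison, its members, and the gene lists were chosen with earlier results of these data known. Of 28390 probes with a RefSeq accession, 26756 (94.2%) were given a symbol through GRCm38.p6, used for names and promoters. On simulated data, limma recovered 13% of 100 probes raised 2-fold and 72% of 100 raised 4-fold, with 5 false calls among 25674 probes tested. The shared rule was not scored. The simulated arrays were drawn independently, without an effect of nucleus or mouse, so the false calls do not speak for the real arrays. The number of arrays and the signal over background limit the precision.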

Additional observations from a re-analysis of the deposited data

Results flagged for a closer look

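For 5 named genes the nuclei of a side differed from each other in limma. *Trh* was higher on the Arc than on the VMH arrays by a log2 difference of 1.39 (limma adjusted p = 0.0308), although neither nucleus measured it above background. *Umodl1* (-1.64, limma adjusted p = 0.00382), *Cfap45* (-1.45, limma adjusted p = 0.00949), and *H2-Q1* (-1.72, limma adjusted p = 0.00818) were lower in the Arc than in the VMH. The DMH was below the LH for *Acvr1c* (-2.05, limma adjusted p = 0.0468), where again neither nucleus measured the probe above background.

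Of 60 groups of 4 arrays examined for the 30 named genes, 9 held 1 array whose gap to the nearest other was a larger share of the range than Dixon's critical value, which chance exceeds in about 5% of groups. With that share, on the Arc and VMH arrays these were *Crh* (0.905, VMH1 high), *C1ql3* (0.852, VMH2 low), *Nts* (0.843, VMH1 high), *Procr* (0.867, Arc2 high), *Epha7* (0.928, VMH2 high), and *Ifi27l2a* (0.835, Arc2 low). On the DMH and LH arrays they were *Olfr361* (0.860, DMH2 low), *Lamb3* (0.919, DMH2 high), and *Ifi27l2a* (0.858, DMH1 high). For *C1ql3*, *Nts*, *Procr*, *Epha7*, and *Lamb3*, the signals of that group were not above background.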

How the results depend on the processing

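Counts are given as probes higher in the DMH and LH and in the Arc and VMH, 83 and 57, and as probes shared by each side, 70 and 50. Quantile normalization, the deposited table, kept outlier spots, raised dim signals, both arrays of a nucleus as the filter, and trended and robust moderation left all 4 counts within 1.5 times. Without scaling, limma called 90 and 25 (90 and 25 shared). With normexp, 34 and 17 were shared. Without a filter on dim probes, 48 and 43 were called (46 and 33 shared), and with probes above background on all 8 arrays, 44 and 30 (34 and 24 shared). A mean per nucleus in the fit gave 815 and 405 calls, and averaging the arrays of a nucleus first gave 1 and 0 (1 and 0 shared). The methods' t-test gave 1281 and 1166 probes unadjusted and 11 and 5 after Benjamini-Hochberg adjustment (11 and 3 shared). Leaving out 1 array gave 41 to 67 and 25 to 54 calls (41 to 67 and 25 to 52 shared). Leaving out a nucleus gave, without the Arc, 210 and 220 (210 and 220 shared), without the VMH, 228 and 161 (228 and 161 shared), without the DMH, 361 and 195 (357 and 192 shared), and without the LH, 35 and 23 (35 and 23 shared). A minimum of 4-fold left 22 and 12 shared probes, 10-fold 8 and 1, and no limma threshold 109 and 77. Except where the fold minimum, the threshold, or the number of arrays itself changed, the cause was not tested.

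With the replicate number as a block, limma called 46 and 38 probes (46 and 35 shared), and the calls of *Adamts17* (limma adjusted p = 0.0563) and *H2-Q1* (0.0552) ended. Same-numbered arrays share a row of the slide, the labels do not say whether they share a mouse, and their deviations correlated at -0.03 to 0.28, so the pairing was not used.

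No named gene changed direction in any alternative run. Calls of the 30 named genes held in 23 with normexp, 24 with raised dim signals, 1 with the arrays of a nucleus averaged first, 10 with the methods' t-test, 215 of 240 fits without 1 array, and 102 of 120 without a nucleus. They held for all 30 without scaling, with quantile normalization, with the deposited table, with outlier spots kept, with a mean per nucleus, and with robust moderation.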
